A study of Mus musculus with 2 samples.

Results

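Read pairs that joined chromosome 1 to mitochondrial DNA were examined in 2 Hi-C libraries of mouse embryonic stem (ES) cells. The pairs were chosen by position alone: the first end fell between 3 and 90.75 Mb of chromosome 1, and the second end lay on the mitochondrial chromosome. They numbered 1011 of the 5767991 pairs with a first end in this part of chromosome 1 in the wild-type library, and 584 of 4412861 in the *Lin28a* knockout library, 1595 in both. Each group was 1 library. Per the labels, one was of wild-type ES cells and the other of ES cells that lack *Lin28a*, which encodes an RNA-binding protein. Both were cultured for 2 days with mouse embryonic fibroblast (MEF) feeder cells in medium with LIF and the 2i inhibitors. DNA of feeder cells was part of both cultures, and its share was not measured. The labels speak of 2 replicates for a group but the pairs name none, so no test between the groups was made. All intervals below are 95% intervals and describe the error of counting alone.

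Hi-C cuts cross-linked chromatin with a restriction enzyme, joins the ends that lie close together and reads both sides of each junction. Mitochondrial DNA is a small circle kept in many copies inside mitochondria, outside the nucleus, and carries genes for respiratory chain proteins and for the RNAs that translate them. A junction between a chromosome and mitochondrial DNA therefore has no counterpart in nuclear folding, and such junctions are often used as a measure of joining between molecules that were not neighbours. Pieces of mitochondrial DNA have also been copied into nuclear chromosomes during evolution. A short read from such a copy can be placed on either molecule. Per the labels, nuclei were extracted from the lysed cells, and no enzyme is named.

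Positions are those of the GRCm38 (mm10) assembly, with RefSeq annotation. The numbers of the restriction fragments in the lists matched the GATC sites of that assembly for 94.7% and 95.4% of the mitochondrial ends and for 97.2% and 97.1% of the chromosome 1 ends sampled, so GATC was taken as the cut site. The mitochondrial chromosome has 16299 bp and 35 GATC sites. Chromosome 1 had 219139 GATC sites between 3 and 90.75 Mb. In this part, 4 nuclear copies of mitochondrial DNA of at least 200 bp were found by alignment. The longest, at chr1:24611535-24616188, aligned over 4654 bp with 99.94% identity to mitochondrial positions 6390 to 11042, on the minus strand of chromosome 1. It overlapped the annotated pseudogenes *Gm10222* and *Gm10925*. It covered the genes of cytochrome oxidase, ATP synthase and complex I subunits from the last part of *COX1* into *ND4*. The copy differed from the reference mitochondrial DNA at 3 places. Counted from 1 on the reference mitochondrial DNA, the mitochondrial base first and that of the copy last, they were A6393T in *COX1*, T9461C in *ND3* and 1 inserted base at position 9821 in the arginine tRNA gene. RefSeq annotates position 9461 as a site where the reference strain differs from other inbred strains, and position 9821 lies in an annotated polymorphic region.

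The stretch around T9461C is shown since nearly all pairs that the lists placed in this copy started beside it. Both sequences run 5′ to 3′ along the plus strand of mitochondrial DNA, at chrM:9375-9501 and, on the minus strand, at chr1:24613077-24613203. The capitals mark a GATC cut site and the base that differs.
mitochondrial DNA: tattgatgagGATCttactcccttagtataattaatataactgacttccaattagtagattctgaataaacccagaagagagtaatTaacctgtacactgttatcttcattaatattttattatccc
nuclear copy: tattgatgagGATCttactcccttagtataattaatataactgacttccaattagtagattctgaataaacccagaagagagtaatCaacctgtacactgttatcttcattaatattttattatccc
In these 127 bases a single base tells the molecules apart. A read of either molecule that stops short of it matches both places equally well.

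Pairs with mitochondrial DNA made up 175 per 1000000 pairs (95% interval 165 to 186) in wild-type cells and 132 per 1000000 (122 to 144) in knockout cells. Over trans pairs, which join chromosome 1 to another autosome or to chromosome X (2300433 and 1764019), the values were 43.95 (41.3 to 46.7) and 33.1 (30.5 to 35.9) per 100000. Read names showed 2 sequencing lanes for each library, and whether these were of the same run was not examined. Nor could they be matched to the 2 replicates that the labels speak of. The wild-type lanes held 924 and 87 of these pairs, or 176 (164 to 187) and 172 (138 to 212) per 1000000. The knockout lanes held 557 and 27, or 132 (121 to 143) and 144 (94.6 to 209) per 1000000. The lanes of a library thus differed by less than their counting error.

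Per length of target, mitochondrial DNA was joined far more often than any nuclear chromosome. Outside the stretch copied on chromosome 1, it held 84.4 ends per kb in wild-type cells and 49.5 per kb in knockout cells. The second ends of trans pairs had a density of 0.944 and 0.724 per kb over the nuclear chromosomes. The lowest density was that of chromosome X (0.377 and 0.265), and the highest were those of chromosome 11 (1.25) and chromosome 6 (0.987). The density on mitochondrial DNA was 89.5 and 68.4 times the nuclear mean. The number of mitochondrial genomes per cell was not measured, so the amount of mitochondrial DNA and the rate of joining per copy cannot be told apart.

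Relative to trans pairs, the knockout library held 0.753 times (0.679 to 0.835) the mitochondrial pairs of the wild-type library. The same ratio lay between 0.916 and 1.05 for 17 partner chromosomes, at 1.24 for chromosome 6 and at 1.34 for chromosome 8. Mitochondrial DNA was thus below all 19 of these, while chromosome Y, with 4413 and 679 pairs, was lower still at 0.201 (0.185 to 0.218). Chromosomes 6 and 8 are part of the trans pairs that all these ratios are set over. Without them among the trans pairs, the mitochondrial ratio was 0.784 (0.707 to 0.869). The ratio was 0.82 (0.739 to 0.909) over cis pairs under 20 kb (400945 and 282535), which join points close together on chromosome 1. It was 0.703 (0.586 to 0.841) in the gene-rich bins described next, 0.777 (0.654 to 0.922) in the middle bins and 0.786 (0.65 to 0.95) in the gene-poor bins. These intervals overlap. With 1 library for each genotype, genotype and library cannot be told apart.

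Along chromosome 1, mitochondrial pairs were found in each of the 88 bins of 1 Mb (the last of 0.75 Mb). The wild-type library held 2 to 45 pairs per bin with a median of 11, and the knockout library 1 to 20 with a median of 6. The bin from 24 to 25 Mb, which holds the longest nuclear copy, was the highest in both. For each bin an expectation was set by sharing out the mitochondrial pairs in proportion to the trans pairs of the bin, and another in proportion to its cis pairs under 20 kb. The exact Poisson interval of the count excluded the trans expectation in 6 bins (6.82% of bins) of the wild-type library, 3 higher and 3 lower. It did so in 5 bins (5.68%) of the knockout library, 4 higher and 1 lower. For the short cis expectation this held in 7 bins (7.95%) and 3 bins (3.41%). The bin at 24 Mb was the 1 bin whose interval excluded the trans expectation on the same side in both libraries. Departures from that expectation were still partly shared. Over the 87 other bins, the ratio of count to trans expectation had a Pearson correlation of 0.45 between the libraries (Spearman 0.40). Trans pairs are the denominator of both ratios, and the source of the shared part was not tested.

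The spread of the counts over bins was measured as the Pearson chi-square over its degrees of freedom, which is near 1 where counting error is the sole source of spread. Against trans coverage it was 2.51 in wild-type cells and 1.6 in knockout cells. Without the bin at 24 Mb it fell to 1.34 and 1.3. Against short cis coverage it was 2.32 and 1.33, and without that bin 1.28 and 1.09. Against the number of GATC sites it was 1.25 and 0.906 without that bin, and against plain bin length 1.25 and 0.945. Without that bin, the values against length and sites were no higher than those against trans pairs in either library. With pairs within 10 kb of any nuclear copy left out, the spread against trans coverage was 1.353 and 1.29. Where counts are uneven, this statistic is lower with fewer pairs. As a coefficient of variation beyond counting error, the spread against trans coverage without the bin at 24 Mb was 16.6% and 18.6%. The 19 nuclear partners ranged from 1.84% to 11.38% and from 2.83% to 12.77%, and chromosome Y had 17.85% and 53.35%. Against GATC sites the mitochondrial values were 14.3% and 0%. No interval was set for these values.

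**Figure D1:**
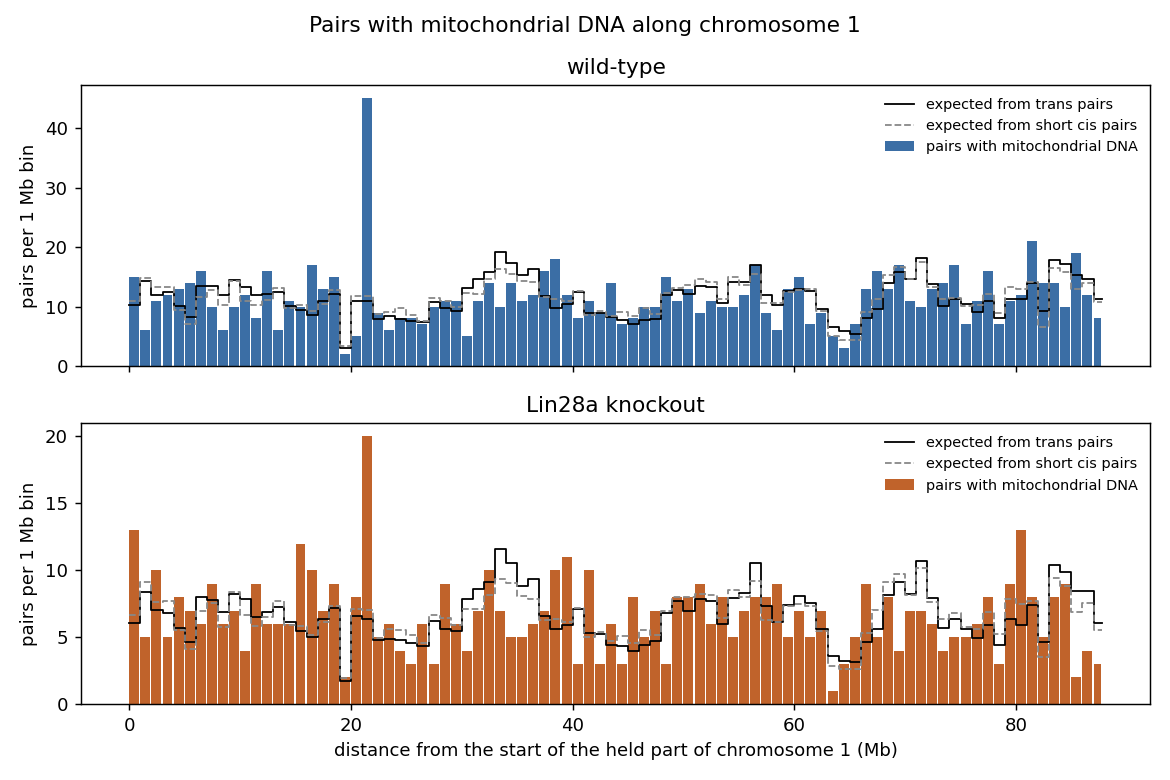
Pairs with mitochondrial DNA in each bin of 1 Mb (bars) against distance from the start of the held part of chromosome 1 in Mb, for the wild-type (top) and knockout (bottom) library, with the counts expected from trans pairs (black line) and from cis pairs under 20 kb (dashed grey line). The highest bar in both is the bin of the longest nuclear copy, with 45 and 20 pairs, and the remaining bars scatter about both lines.

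Mitochondrial pairs tracked the other kinds of pairs weakly from bin to bin. Across the 88 bins, their number had a Pearson correlation of 0.25 with the trans pairs in wild-type cells and of 0.13 in knockout cells. The bin at 24 Mb, with 45 and 20 mitochondrial pairs, is part of all correlations given here. Trans pairs and short cis pairs of the same bins, which come from the same library as the mitochondrial pairs do, had correlations of 0.93 and 0.91. GC content had a correlation of 0.79 and 0.76 with trans pairs and of 0.16 and -0.054 with mitochondrial pairs. The ratio of mitochondrial to trans pairs had a correlation of -0.26 and -0.43 with GC content. Since its denominator rises with GC content, a count that does not rise with it gives a negative value. With a median of 11 and 6 pairs per bin, counting error limits all correlations of these counts.

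Sorted by their number of protein-coding genes, the 29 gene-rich bins (7 to 30 genes) held 34.3% (31.4 to 37.3) of the mitochondrial pairs in wild-type cells and 32.4% (28.6 to 36.3) in knockout cells. These bins make up 33.05% of the length and 32.7% of the GATC sites. They held 39.5% and 39.97% of the trans pairs and 37.6% and 37.6% of the short cis pairs. The intervals of the mitochondrial shares lay below all 4 of these values, and included the shares of length and of sites. Without the pairs within 10 kb of a nuclear copy the shares were 35.4% (32.4 to 38.5) and 33.0% (29.1 to 37.0). The wild-type interval then includes the short cis share, as do those in wild-type cells with bins of 500 kb (32.0 to 37.9) and in knockout cells with a mapping quality, the aligner's score of how uniquely a read is placed, of 30 or more at both ends (29.6 to 37.9), all set against the short cis shares above, so the difference from short cis pairs is near the limit of counting error. In the smaller lanes the share was 34.5% (24.6 to 45.4) of 87 pairs in wild-type cells and 44.4% (25.5 to 64.7) of 27 pairs in knockout cells. Both intervals include the trans and short cis shares, and the knockout value lies above them. Every one of the 19 nuclear partners had a larger share in the gene-rich bins, from 36.9% for chromosome X to 41.5% for chromosome 11 in wild-type cells and from 37.0% to 41.98% for the same chromosomes in knockout cells. The wild-type mitochondrial interval (31.4 to 37.3) includes the share of chromosome X, so that order is within counting error. Without pairs near a copy it also includes chromosomes 3 (37.8%) and 18 (38.2%), and the knockout interval then includes chromosome X. Chromosome Y had 33.6% (32.2 to 35.0) and 27.5% (24.2 to 31.1).

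In rates, the gene-rich bins of the wild-type library held 38.1 mitochondrial pairs per 100000 trans pairs and the 29 gene-poor bins, with 0 to 2 genes, held 49.0, a ratio of 0.779 (0.665 to 0.912). In the knockout library the rates were 26.8 and 38.5, a ratio of 0.696 (0.564 to 0.859). Both ratios were below 1 beyond counting error. Per short cis pair the ratio was 0.858 (0.733 to 1.005) in wild-type cells and 0.778 (0.631 to 0.959) in knockout cells, so the first was within counting error of 1. Trans pairs per short cis pair went the other way in the same bins, with ratios of 1.1 and 1.12.

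**Figure D2:**
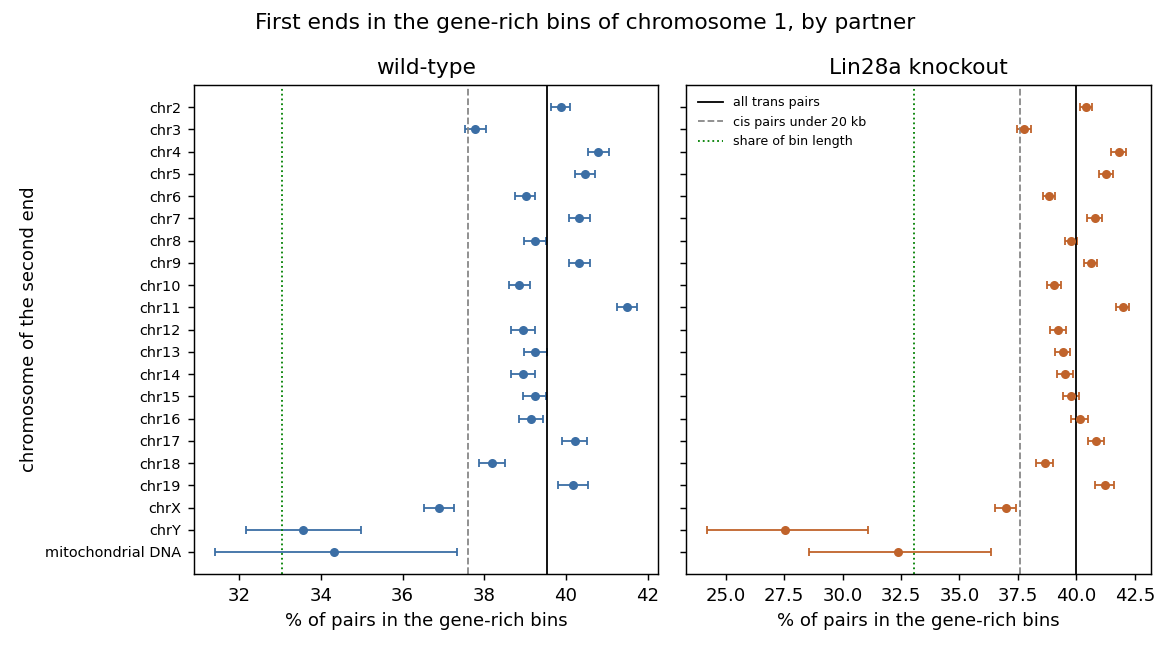
Percent of the pairs of each partner chromosome whose first end lies in the 29 gene-rich bins of chromosome 1, with 95% Clopper-Pearson intervals, for the wild-type (left) and knockout (right) library on separate scales. Vertical lines mark all trans pairs, cis pairs under 20 kb and the share of bin length. Mitochondrial DNA, at 34.3% and 32.4%, lies left of every autosome and chromosome X, and chromosome Y lies further left. The wild-type interval of mitochondrial DNA includes the value of chromosome X.

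The chromosome 1 ends of mitochondrial pairs also lay in shorter restriction fragments than those of other pairs. Fragments under 200 bp held 25.9% (23.2 to 28.7) of them in wild-type cells and 19.5% (16.4 to 23.0) in knockout cells. For trans pairs these shares were 16.6% and 12.7%, with a range of 15.7% to 17.8% and of 12.03% to 13.5% over the 19 partners. Fragments of 600 bp or more held 21.4% (18.9 to 24.0) and 25.5% (22.0 to 29.3) of the mitochondrial pairs against 32.5% and 36.0% of trans pairs and 35.0% and 38.1% of short cis pairs. Fragments of 200 to under 600 bp held 52.7% and 55.0% of the mitochondrial pairs and 51.0% and 51.2% of the trans pairs. Both libraries thus showed the same shift toward short fragments, beyond counting error at either end of the length scale. Chromosome Y pairs did not show it: 17.7% (16.6 to 18.9) and 10.3% (8.13 to 12.9) of them lay in fragments under 200 bp. By number, fragments under 200 bp were 41.7% of all fragments in this part of chromosome 1 and fragments of 600 bp or more were 22.0%, while by length they were 9.41% and 57.4%.

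**Figure D3:**
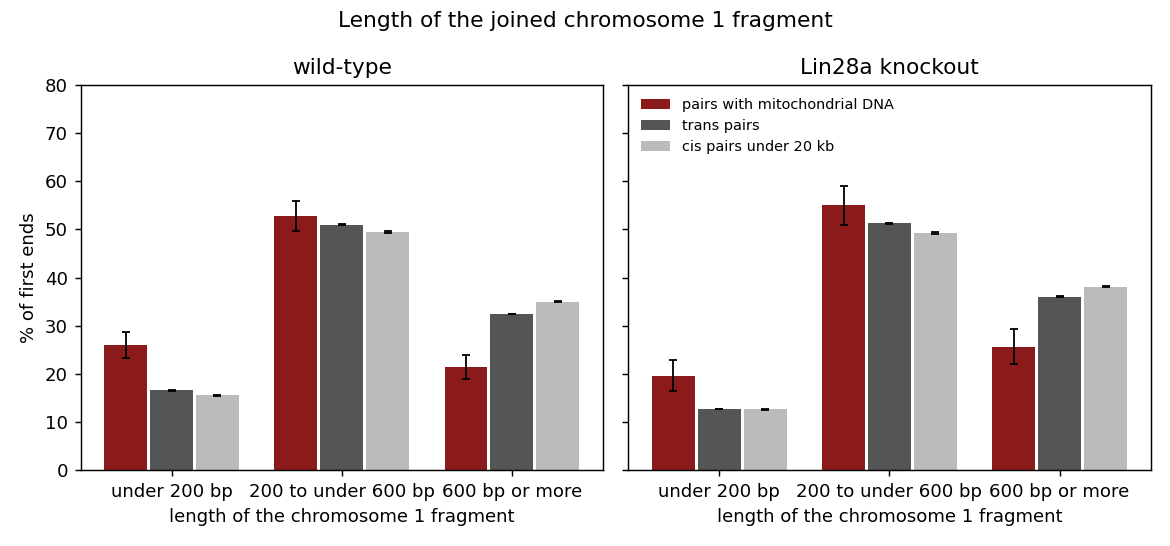
Percent of chromosome 1 ends in restriction fragments of 3 length classes, for mitochondrial pairs (dark red), trans pairs (dark grey) and cis pairs under 20 kb (light grey), in the wild-type (left) and knockout (right) library. Bars start at 0 and error bars are 95% Clopper-Pearson intervals. Mitochondrial pairs are the highest bar under 200 bp (25.9% and 19.5%) and the lowest at 600 bp or more (21.4% and 25.5%).

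Apart from the nuclear copy the mitochondrial pairs were scattered over single chromosome 1 fragments. In the wild-type library they fell in 978 fragments, of which 972 were hit once. In the knockout library they fell in 571 fragments, of which 569 were hit once. The fragment with most pairs held 29 and 13 and was the same one in both libraries. No other fragment held more than 2, and no other window of 10 kb held more than 3 (wild-type) or 2 (knockout).

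That fragment lies in the longest nuclear copy, from chr1:24611839 up to the cut site that begins at 24613190, and is 1351 bp long. Its mitochondrial pairs raised the bin at 24 Mb to 45 pairs (32.8 to 60.2) in wild-type cells and 20 (12.2 to 30.9) in knockout cells, which was 4.26 times (3.11 to 5.70) and 3.23 times (1.97 to 4.99) the number expected from the trans pairs of that bin and the rate of the 87 others. Without the fragment, the bin held 16 and 7 mitochondrial pairs, within counting error of the 10.9 and 6.34 expected from trans pairs over all bins. The other 3 copies were shorter and less alike, with 80.4% identity over 1118 bp in the bin at 65 Mb, 77.5% over 720 bp at 34 Mb and 69.0% over 649 bp at 63 Mb. None of these held a mitochondrial pair in either library (0 of 167 and 0 of 178 pairs, which allows a share of up to 1.8% and 1.69%, from 3 counts). Their bins held 9, 11 and 15 pairs in wild-type cells and 7 each in knockout cells, against 9.52, 14.7 and 13.02 and against 5.60, 8.58 and 8.06 expected.

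Counting all partners, the fragment held 593 first ends in wild-type cells and 361 in knockout cells, while the rest of the copy held 32 and 20. All first ends of the fragment read the plus strand. All but 1 in each library started within 150 bp, the read length, of the base of T9461C, and the remaining 1 started within 150 bp of the inserted base. Mitochondrial partners made up 4.89% (3.30 to 6.95) of these pairs in wild-type cells and 3.60% (1.93 to 6.08) in knockout cells. In the flanking 50 kb on either side the lists had 6888 and 5325 pairs and 0 with mitochondrial DNA, which allows a share of up to 0.0436% and 0.0563%.

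The partners of this fragment were also unlike those of its neighbours. Chromosome 1 itself was the partner of 10.3% (7.96 to 13.02) of the pairs in wild-type cells and 8.86% (6.14 to 12.3) in knockout cells. In the flanks it was the partner of 63.7% and 64.9%. A cis pair is listed once, under its lower position, so 20 and 8 more chromosome 1 pairs had this fragment as second end. With these added, chromosome 1 made up 13.9% and 11.3% of the fragment's pairs with a nuclear partner, where chromosome 1 is 7.42% of the nuclear length. Chromosome X was the partner in 26 of 503 trans pairs, 5.17% (3.40 to 7.48), and in 14 of 314, 4.46% (2.46 to 7.37). Over all trans pairs it was 2.81% and 2.57%, and it is 7.01% of the nuclear length. The wild-type interval lay above the share over all trans pairs, and the knockout interval included it. The number of the fragment's pairs had a ratio of 0.794 (0.695 to 0.906) between knockout and wild-type library per trans pair, which overlaps the ratio of 0.753 for the mitochondrial pairs. The lists hold no read bases, so whether these reads came from the nuclear copy or from mitochondrial DNA that carries the base of other strains was not tested.

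**Figure D4:**
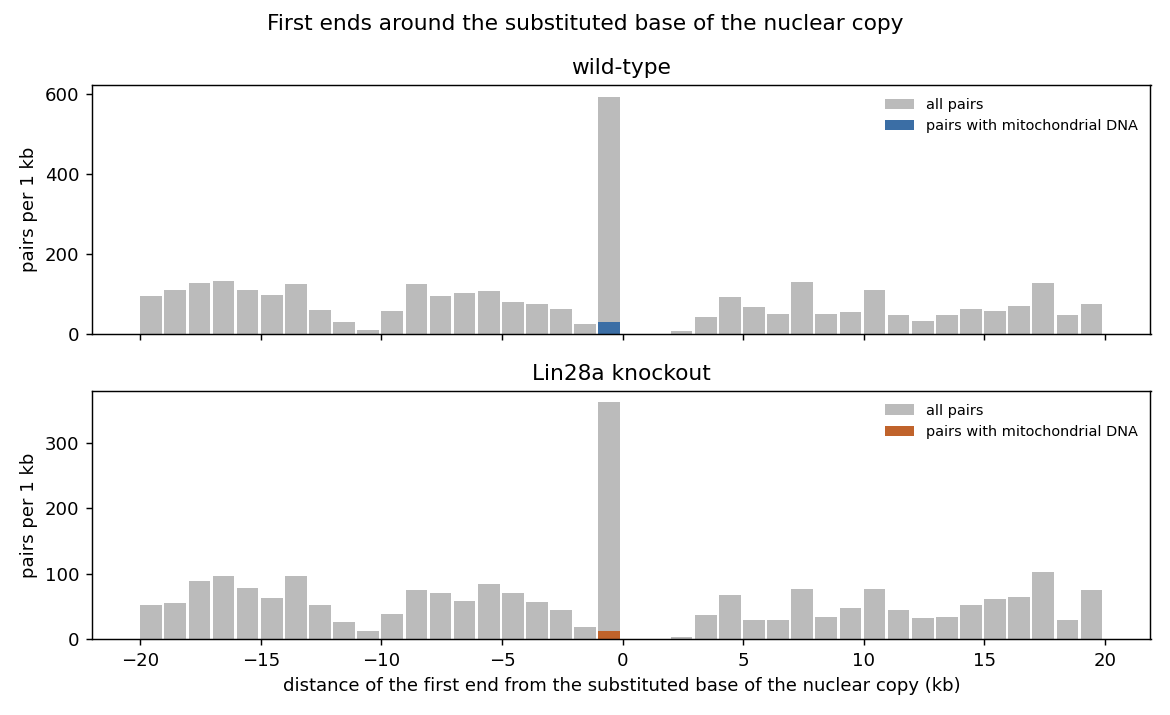
First ends per 1 kb within 20 kb of the base of T9461C in the nuclear copy (distance in kb on the horizontal axis), for all pairs (grey) and for pairs with mitochondrial DNA (coloured), in the wild-type (top) and knockout (bottom) library. The 1 kb before the base holds the peak of all pairs and all mitochondrial pairs of the window (29 and 13), and the stretch after it, inside the copy, is nearly empty.

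Along mitochondrial DNA, the copied stretch was nearly empty. It held 28 ends in wild-type cells and 8 in knockout cells, where the density of the rest would give 393 and 230. Of its fragments, 10 lay wholly inside, and they held 0 ends and 1 end. The lists hold no read with a mapping quality below 11. Outside the stretch the ends followed the cut sites. In the 22 bins of 500 bp there, the number of ends ranged from 0 to 88 with a median of 41 in wild-type cells and from 0 to 45 with a median of 26.5 in knockout cells. It had a Pearson correlation with the number of GATC sites of 0.78 and 0.71, and of 0.89 between the libraries. The median distance from an end to the cut site it faced was 87 and 103.5 bp.

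Among the longer fragments the number of ends per fragment was flatter. The 15 fragments of at least 200 bp outside the stretch held 36 to 69 ends (median 54) in wild-type cells and 13 to 51 (median 33) in knockout cells. Their Pearson chi-square over degrees of freedom was 1.8 and 3.14, compared with 22.0 and 9.14 for the bins of 500 bp outside the stretch. The 9 shorter fragments outside the stretch are not part of that value and were less even, with 0 to 46 and 0 to 22 ends, and 3 of them held 0 in each library. The reference cuts 1 fragment of the circle at its origin into 2 pieces, which count separately in these values. The piece of 1888 bp (46 and 44 ends) is among the 15, and that of 120 bp (8 and 14 ends) among the 9. Over the 15 longer fragments the counts of both libraries had a correlation of 0.18. In the knockout library, mitochondrial fragments of 600 bp or more held 32.9% (28.9 to 37.2) of the ends outside the stretch against 23.2% (20.5 to 26.1) in the wild-type library. The 2 pieces of the fragment cut at the origin were left out of these shares. Second ends of trans pairs moved the same way by less, from 32.4% in the wild-type to 36.0% in knockout cells. The summed distance of both ends to their cut sites had a median of 271 bp for mitochondrial pairs in wild-type cells and of 301 bp in knockout cells, and of 270 and 301 bp for trans pairs.

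Set against trans pairs whose second end lay in fragments of the same length, the knockout to wild-type ratio was 0.656 (0.468 to 0.906) for the 8 mitochondrial fragments under 200 bp and 0.674 (0.583 to 0.778) for the 10 of 200 to under 600 bp. For the 4 of 600 bp or more it was 0.938 (0.761 to 1.15), within counting error of 1. The last 2 intervals overlap narrowly, and the difference between classes was not tested.

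The genes of mitochondrial DNA followed the same map. Their densities are not scaled for depth, and the wild-type library is the larger one (2300433 against 1764019 trans pairs). The 5 protein-coding genes wholly outside the stretch held 570 and 324 ends, at 54.3 to 173 per kb in wild-type cells and 44.4 to 75.2 per kb in knockout cells. *ND6*, a complex I subunit read from the opposite strand, had the highest density of the protein-coding genes in the wild-type library (90 ends in 519 bp, 3 cut sites), at 173 per kb (139 to 213), and stood at 69.4 (48.6 to 96.0) in knockout cells. *CYTB*, the cytochrome b subunit of complex III, had 146 (125 to 170) and 75.2 (60.1 to 92.8) per kb. *ND1*, *ND2* and *ND5*, also complex I subunits, had 128.5, 87.7 and 54.3 per kb in wild-type cells and 70.0, 52.0 and 44.4 in knockout cells.

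The 6 protein-coding genes wholly inside the stretch were *COX2* and *COX3* of cytochrome oxidase, *ATP6* and *ATP8* of ATP synthase, and *ND3* and *ND4L* of complex I. They held 0 ends in wild-type cells and 1 end, in *ND3*, in knockout cells. For *COX3* the count of 0 has an upper bound of 4.71 ends per kb, from the exact Poisson interval and not from the 3 counts used above. The 2 genes partly inside, *COX1* and *ND4*, held 116 and 85 ends in wild-type cells and 70 and 28 in knockout cells. Of the ribosomal RNA genes, *mt-Rnr2* with 4 cut sites held 125 and 75 ends, or 79.0 and 47.4 per kb, while *mt-Rnr1* with 0 cut sites held 3 in each library, or 3.14 per kb. The D-loop, the control region where replication starts, held 54 and 49 ends, or 61.6 (46.3 to 80.3) and 55.9 (41.3 to 73.9) per kb. These values, too, are not scaled for the depth of the libraries.

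**Figure D5:**
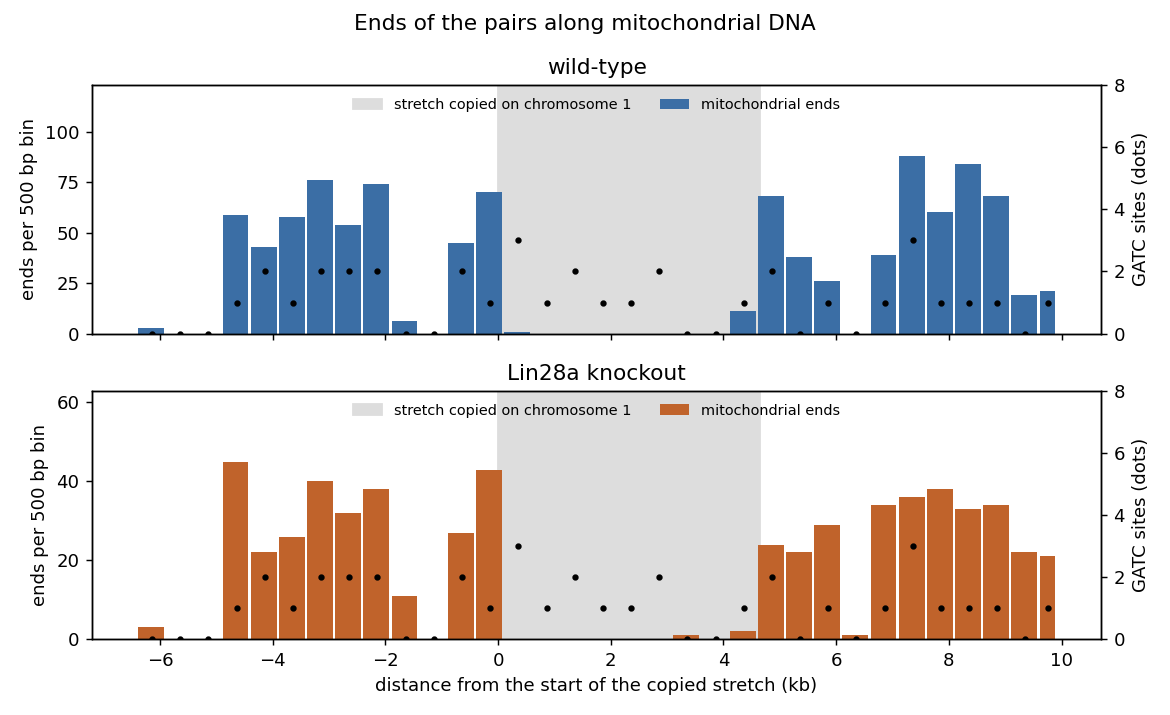
Mitochondrial ends in each bin of 500 bp (bars) against distance in kb from the start of the stretch copied on chromosome 1 (grey), for the wild-type (top) and knockout (bottom) library, with the number of GATC sites of each bin as dots on the right axis. The grey stretch, with 28 and 8 ends, is empty but for its edges and 1 knockout end, and bins far from a cut site are low outside it as well.

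Among the pairs in the lists, which hold no score below 11, mitochondrial pairs were not of low mapping quality. Reads with lower scores are absent from the lists, so the shares below do not cover them. Both ends had a score of 30 or more in 87.9% (85.8 to 89.9) of them in wild-type cells and in 88.01% (85.1 to 90.5) in knockout cells. For trans pairs these shares were 86.03% and 84.8%, and for short cis pairs 88.1% and 86.7%. The mitochondrial ends alone reached 30 in 95.75% (94.3 to 96.9) and 95.03% (93.0 to 96.7), above the 92.5% and 91.8% of the second ends of trans pairs. The chromosome 1 ends reached it in 91.9% (90.0 to 93.5) and 92.5% (90.0 to 94.5), with 92.9% and 92.3% for trans pairs. The median score was 42 for both ends in both libraries, the highest in the lists. In the fragment of the nuclear copy the chromosome 1 ends had a median score of 30. The 4 combinations of strands held 21.7% to 26.4% and 22.4% to 28.6% of the mitochondrial pairs each, and 24.9% to 25.1% of the trans pairs, while short cis pairs ranged from 20.8% to 36.3% in the wild-type library.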

How the data were processed

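Hi-C libraries of 1 wild-type and 1 *Lin28a* knockout ES cell sample were compared. The submitters' processing notes name CASAVA 1.8, Bowtie2, HiC-Pro and the build mm10, and no filters. The deposited lists hold 1 line per valid pair, with the position, strand and restriction fragment of both ends and a mapping quality score per end, given by the authors' aligner. Scores started at 11, summed distances to cut sites ran from 100 to 600 bp and no pair was repeated. Both lists were used only in part here, the wild-type one up to 90862049 on chromosome 1, and 1 incomplete line was left out of each. Pairs were counted without normalization. Mitochondrial DNA was aligned to chromosome 1 with BLAST 2.17.0 (blastn, E-value 1e-10). Counts have exact Poisson intervals, shares Clopper-Pearson intervals and ratios intervals from the exact binomial split (95%, scipy 1.17.1). The spread statistic was checked on simulated counts. The genes named were the mitochondrial protein-coding and rRNA genes. Bins were named if they held a copy of at least 200 bp. They were also named if the interval of the count excluded the trans expectation, on the same side, in both libraries. The members and lists were chosen with earlier results of these data known. Alternatives were a mapping quality of 30, each lane alone, bins of 500 kb and 2 Mb, and pairs near copies left out. Further ones were other denominators, GC content in place of genes and, chosen after seeing the data, fragment length classes.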

Additional observations from a re-analysis of the deposited data

Results flagged for a closer look

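The knockout list reached past the part of chromosome 1 that was compared, and mitochondrial pairs were found there as well, which is why they are given here. They numbered 270 with a first end on the 39.1 Mb of chromosome 2 that the list covers, or 6.91 per Mb (6.11 to 7.78). On chromosome 1 beyond 90.75 Mb they numbered 698, or 6.67 per Mb (6.18 to 7.18), and in the compared part 6.66 per Mb (6.13 to 7.22). Per Mb the 3 parts agree within counting error. Per 100000 trans pairs the values were 27.4 (24.3 to 30.9), 37.6 (34.9 to 40.5) and 33.1 (30.5 to 35.9). The interval of chromosome 2 does not overlap that of chromosome 1 beyond 90.75 Mb. The trans partners of chromosome 2 are not those of chromosome 1, so these denominators are unlike. The copied stretch of mitochondrial DNA held 5 and 14 of the ends in the parts not compared. No wild-type pairs of these parts were used here.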

How the results depend on the processing

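Of 83 values under other settings, 69 stayed within the interval of the main value. Several settings keep most of the same pairs, such as the larger lanes with 924 of 1011 and 557 of 584. Their values were therefore likely to stay close to the main value. The smaller lanes, with few pairs, gave a spread against trans coverage of 1.17 (wild-type) and 0.981 (knockout). Their wild-type spread against short cis coverage was 1.17, and their unevenness along mitochondrial DNA 3.37 and 1.31. In the knockout library the smaller lane gave 144 pairs per 1000000 and 96.3% with both scores at 30 or more. Its share in the gene-rich bins was 44.4% (25.5 to 64.7), which turns from below to above the trans and short cis shares. Where counts are uneven, chi-square over degrees of freedom is by construction lower with fewer pairs. Leaving out pairs near nuclear copies lowered the wild-type spread to 1.353 against trans and 1.28 against short cis coverage. A score threshold of 40 left 68.9% and 68.3% of pairs. The knockout to wild-type ratio ranged from 0.749 to 0.831 over the planned settings. The value of 0.831 was that of the smaller lanes, with an interval of 0.518 to 1.29 that includes 1. In fragments of 200 to under 600 bp the ratio was 0.674 and in those of 600 bp or more 0.938 (chosen after seeing the data). The cause was not tested. Depth limits the values by bin, with a median of 11 and 6 pairs. No paired analysis was possible because each group is 1 list that names no replicate.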
